A study of Mus musculus with 10 samples.

Results

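The Slc25a genes encode the mitochondrial carriers of the inner membrane, and 35 of them were measured here in mouse liver with and without DEHP, a phthalate plasticizer given by gavage. All rows of the expression table whose symbol starts with Slc25a were taken, except Slc25a17, a peroxisomal carrier, and Slc25a20, the carnitine/acylcarnitine carrier. Of the 45 Slc25a rows 43 remained, and 35 of these reached 0.5 FPKM in 5 or more of the 10 libraries. The whole table held 16874 rows, of which 11242 passed the same filter. FPKM is a fragment count scaled to transcript length and to the mapped fragments of its library, so it is relative to the rest of the library. The mice were C57BL/6 males with a liver-specific Pparg knockout in both groups, Pparg being the gene of the lipid-sensing nuclear receptor PPAR gamma. The control group, 5 libraries, had received 0.5% CMC, the vehicle, and the other, also 5 libraries, DEHP at 2500 mg per kg of body weight. Each group had 12 mice of 20 to 30 g per the labels, which tie no library to a mouse. The p-values therefore reflect only the spread among these samples, which may be technical. The duration of dosing, the age of the mice and what drives the knockout are not given in the sources used here. No mice with intact Pparg were analysed here, so a difference cannot be assigned to the presence or absence of the receptor.

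Carriers of this family exchange metabolites between the cytosol and the mitochondrial matrix across a membrane that is otherwise tightly closed. In liver they serve ATP export, citrate export for fat synthesis, the movement of reducing equivalents, urea synthesis and the import of cofactors. DEHP, through its metabolites, is a known activator of PPAR alpha, a receptor that controls many mitochondrial and peroxisomal genes of hepatocytes.

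Of the 35 members 5 were higher and 2 lower after DEHP, and 28 did not pass the test, which was limma on log2(FPKM + 0.5) with Benjamini-Hochberg adjustment over all 11242 genes and a threshold of 0.05. The higher members described here were Slc25a10, the dicarboxylate carrier, Slc25a11, the oxoglutarate carrier, Slc25a5, an ADP/ATP carrier, and Slc25a48, a carrier linked to choline import. The lower ones were Slc25a47, a liver-enriched carrier grouped here as uncoupling protein-like, and Slc25a34, whose substrate is little settled. Called members made up 20.0% of the family, where 11.5% of all tested genes were called. By direction the shares were 14.3% of members against 9.12% of all genes higher, and 5.71% against 2.4% lower. The fold change was positive in 26 members, or 74.3%, against 59.5% of all tested genes, and its median on the log2 scale was 0.12 in the members and 0.06 over all genes. The split depends on the scaling: under median-of-ratios scaling 3 members were higher and 2 lower (5.68% and 3.96% of all genes) and 22 had a positive fold change, and under quantile normalization 3 were higher and 3 lower (5.43% and 4.86%) and 19 positive. Without CMC library 2 and DEHP library 5, the counts were 4 higher and 1 lower, beside 948 and 244 of the 11242 tested genes.

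**Figure D1:**
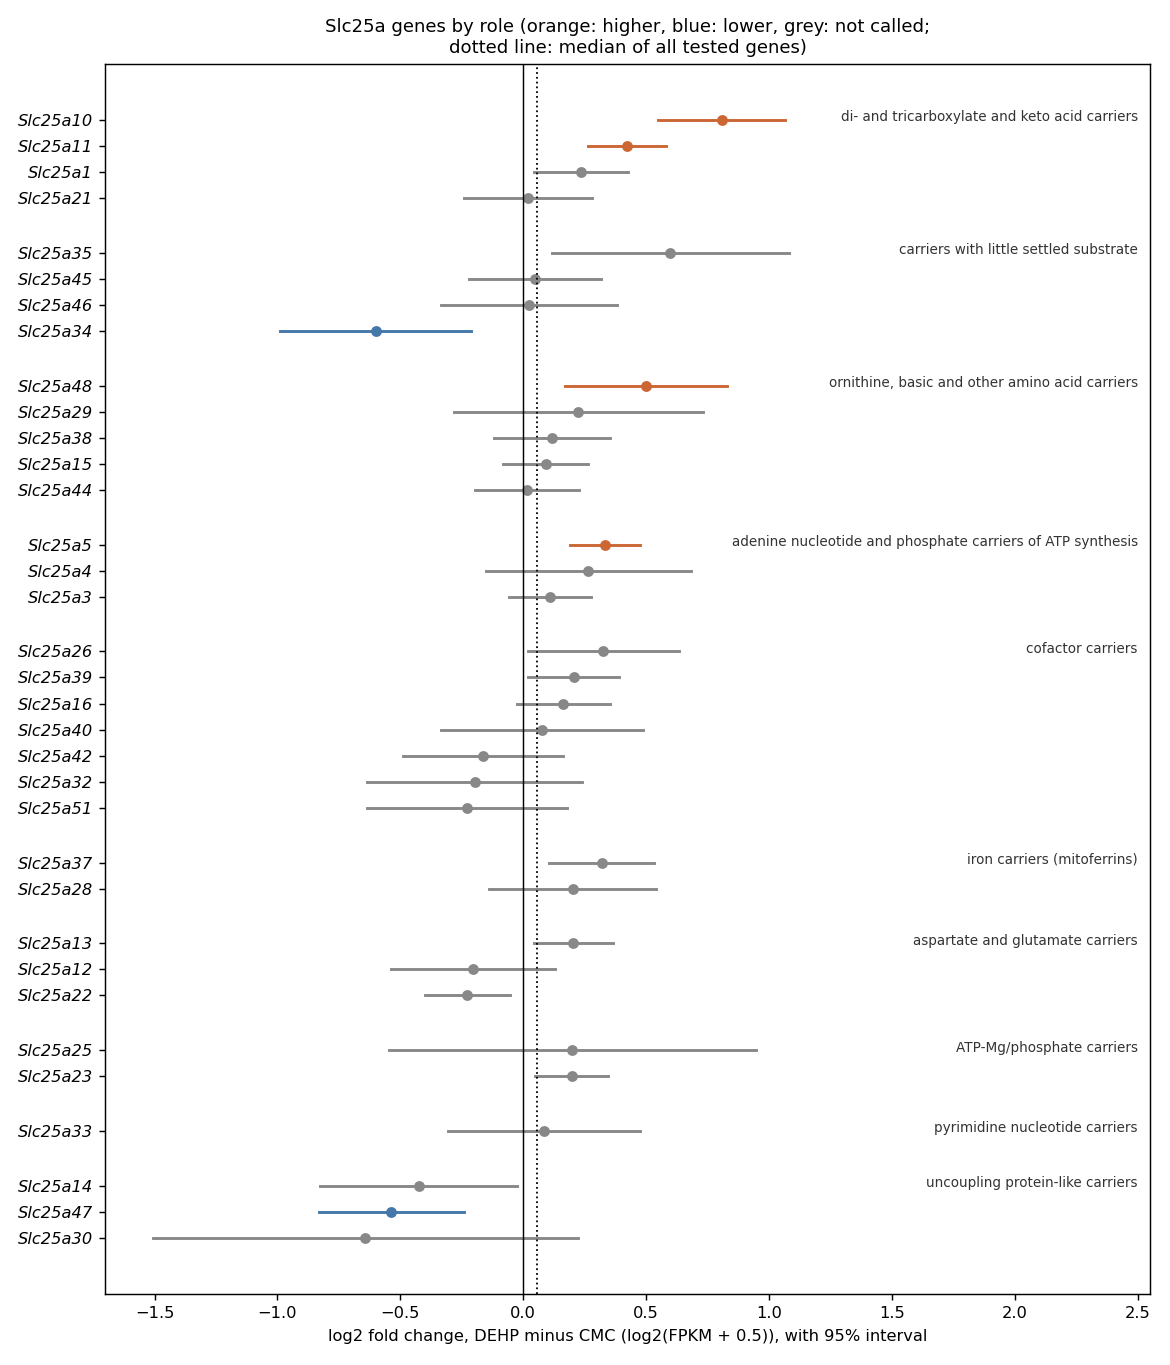
Log2 fold changes (DEHP minus CMC, on log2(FPKM + 0.5)) of Slc25a members grouped by role, with limma's 95% intervals over 5 and 5 libraries; the orange members were higher, the blue ones lower and the grey ones not called, and the dotted line marks the median of all tested genes. Slc25a10, at 0.81, lies farthest to the right of the line.

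Facts of the libraries bear on how these values can be read. Pparg itself read 2.40, 4.56, 4.14, 2.72 and 5.90 FPKM in the CMC libraries, numbers 1 to 5 in order, against 7.81, 5.50, 9.40, 7.79 and 7.04 FPKM in the DEHP libraries (log2 fold change 0.89, limma adjusted p = 0.0118). The file gives 1 value for the gene and the labels do not say which part was deleted, so this level is no check of the knockout. FPKM summed to 714302 per CMC and 714452 per DEHP library on average, and total depth is unknown. CMC library 2 stood apart from the other 9 on the second principal component of log2 values, with a score of 36.0 where the others lay between -11.1 and 8.62, and DEHP library 5 on the third, with 29.6 against -14.2 to 4.64. All 6 hepatocyte markers listed passed the filter. Of these Alb, Ttr and Apoa1 were lower after DEHP (log2 fold change -0.64, -0.39 and -0.37). Hnf4a, Cps1 and Asgr1 were not called (-0.24, -0.13 and 0.03, limma adjusted p = 0.0923, 0.443 and 0.873). The summed level of the 6 ran from 36320 to 42550 FPKM in DEHP and from 50770 to 66550 in CMC libraries. Alb, Apoa1 and Ttr made up nearly all of that sum. FPKM is relative to the library, so a fall of such abundant transcripts can raise all others. The part of this fall in the rises reported here was not tested. Values under median-of-ratios scaling, which is less bound to such transcripts, are given beside the called members. No marker of Kupffer, stellate, endothelial or bile duct cells was called (6, 6, 6 and 4 tested). Ucp1 of brown fat and Tnnt3 of skeletal muscle were listed at 0 in every library, but other markers of fat and muscle were not. Mylpf of muscle averaged 1.55 FPKM in CMC and 1.07 FPKM in DEHP libraries, and Cfd of fat 0.208 and 0.852 FPKM. In bulk liver, fewer cells of a type and less RNA per cell cannot be told apart.

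The sequence just upstream of the start site was read for 27 of the 35 members, with 36 start sites, as 250 bases each. The other members had no window in the RefSeq GRCm38.p6 set used here. Shown are the windows of Slc25a10, with the largest rise, of Slc25a5, the most abundant member after DEHP, and of Slc25a47, the most abundant in CMC livers and lower after DEHP. Capitals mark matches, on either strand, to the nuclear receptor hexamer AGGTCA, read as TGACCT on the other strand, the CCAAT box, read as ATTGG on the other strand, or the GC box GGGCGG, read there as CCGCCC.
Slc25a10, chr11:120491587-120491836, plus strand: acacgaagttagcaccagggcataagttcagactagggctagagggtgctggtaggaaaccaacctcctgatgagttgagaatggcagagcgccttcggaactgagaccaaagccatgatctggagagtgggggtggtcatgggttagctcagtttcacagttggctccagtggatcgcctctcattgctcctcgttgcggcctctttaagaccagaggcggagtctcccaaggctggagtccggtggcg
Slc25a5, chrX:36795347-36795596, plus strand: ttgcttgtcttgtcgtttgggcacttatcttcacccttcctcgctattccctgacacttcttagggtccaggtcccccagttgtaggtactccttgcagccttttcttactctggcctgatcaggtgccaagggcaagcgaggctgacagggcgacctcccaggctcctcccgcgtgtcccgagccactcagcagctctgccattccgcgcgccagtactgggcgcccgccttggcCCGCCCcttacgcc
Slc25a47, chr12:108850879-108851128, plus strand: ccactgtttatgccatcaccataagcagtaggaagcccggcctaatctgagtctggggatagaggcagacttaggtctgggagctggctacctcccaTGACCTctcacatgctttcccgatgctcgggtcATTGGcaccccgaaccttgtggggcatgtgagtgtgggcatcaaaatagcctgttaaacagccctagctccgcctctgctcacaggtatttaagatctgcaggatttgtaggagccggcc
The Slc25a10 window held none of the 8 motifs searched. Gm11788, an antisense gene on the other strand, overlaps the Slc25a10 gene, and its exons were not compared with the window. The Slc25a5 window held 1 GC box, and the Slc25a47 window, inside RefSeq's longest span of that gene, held AGGTCA and CCAAT. Windows with AGGTCA were also found for Slc25a34, which fell as well, and for Slc25a39 and Slc25a45, which were not called. That motif was in 11.1% of the 36 member windows and in 11.5% of the 11499 windows of tested genes.

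The longer DR1 element, AGGNCA repeated in the same direction after 1 spacer base, the kind that PPAR and RXR bind together, was in 0 of the 36 member windows and in 0.278% of the windows of tested genes. CCAAT was in 18 of the 36 member windows against 35.5% of the windows of tested genes, and GGGCGG in 69.4% against 56.7%. The other motifs were the NRF1 element, GCGCA and then GCGC after 1 base of any kind, found in the Slc25a3 window alone (2.78% against 8.14%), CACGTG (16.7% against 8.46%), TATAAA (2.78% against 6.75%) and TCACNCCAC (0 windows against 1.14%). The hexamer may be part of the longer element and was counted in both. Some windows of the same gene overlap, as for Slc25a14 and Slc25a23, so a site can be counted in more than 1 window. Counted by gene, the CCAAT box was found for 15 of the 27 members with a window and the GC box for 19. The motif in 16.7% of member windows was found for 5. Shares by gene were not computed for all tested genes, and the differences in shares were not tested. A match or its lack describes these letters in these windows and nothing of binding.

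The carriers of di- and tricarboxylates and keto acids held 2 of the 5 rises. Slc25a10 (gene ID 27376, chr11:120491837-120501161) exchanges malate or succinate for phosphate. CMC libraries 1 to 5 gave levels of 48.1, 49.7, 44.0, 48.1 and 50.8 FPKM, and DEHP libraries 1 to 5 gave 90.5, 74.2, 86.3, 65.5 and 114 FPKM. All DEHP libraries lay above all CMC libraries, with DEHP library 5 the highest and library 4 the lowest of its group. Over the 5 libraries of each group the mean ± SD went up from 48.1 ± 2.59 to 86.0 ± 18.4 FPKM, a log2 fold change of 0.81 (SE 0.12, limma adjusted p = 0.000669). It was 0.73 under median-of-ratios scaling and 0.71 without CMC library 2 and DEHP library 5, with adjusted p of 0.00303 and 0.00111. Some reads could belong to Gm11788, which overlaps it on the opposite strand, since the counting is not stated to use strand: 5.19% of the 50-base words of its transcripts are shared with that gene.

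Slc25a11 (gene ID 67863, chr11:70644019-70647531) exchanges oxoglutarate for malate in the malate-aspartate shuttle. CMC libraries 1 to 5 gave levels of 33.5, 36.7, 34.05, 39.6 and 35.9 FPKM, and DEHP libraries 1 to 5 gave 46.0, 47.6, 51.5, 45.5 and 50.7 FPKM. Again no library of one group reached into the other, and the spread within each was narrow. The mean rose from 35.9 ± 2.43 to 48.3 ± 2.70 FPKM, a log2 fold change of 0.42 (SE 0.07, limma adjusted p = 0.00219). It was 0.35 under median-of-ratios scaling. Rnf167 overlaps it on the opposite strand, shares 6.38% of its words, and had a log2 fold change of 0.05 (adjusted p = 0.834).

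Slc25a1, the citrate carrier that supplies cytosolic acetyl-CoA, did not pass the test. CMC libraries 1 to 5 gave levels of 166, 171, 183, 184 and 196 FPKM, and DEHP libraries 1 to 5 gave 216, 181, 236, 191 and 239 FPKM. DEHP libraries 2 and 4 lay inside the CMC range and the other 3 above it. The log2 fold change was 0.23 (SE 0.09, limma adjusted p = 0.115), and the adjusted p was 0.0460 without DEHP library 2. That was the 1 of 22 alternatives that called it, and under other limma settings the adjusted p reached 0.551. Slc25a21, the oxoadipate carrier, averaged 4.0 FPKM in CMC and 4.05 in DEHP libraries, with a 95% interval of the log2 fold change from -0.24 to 0.28.

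**Figure D2:**
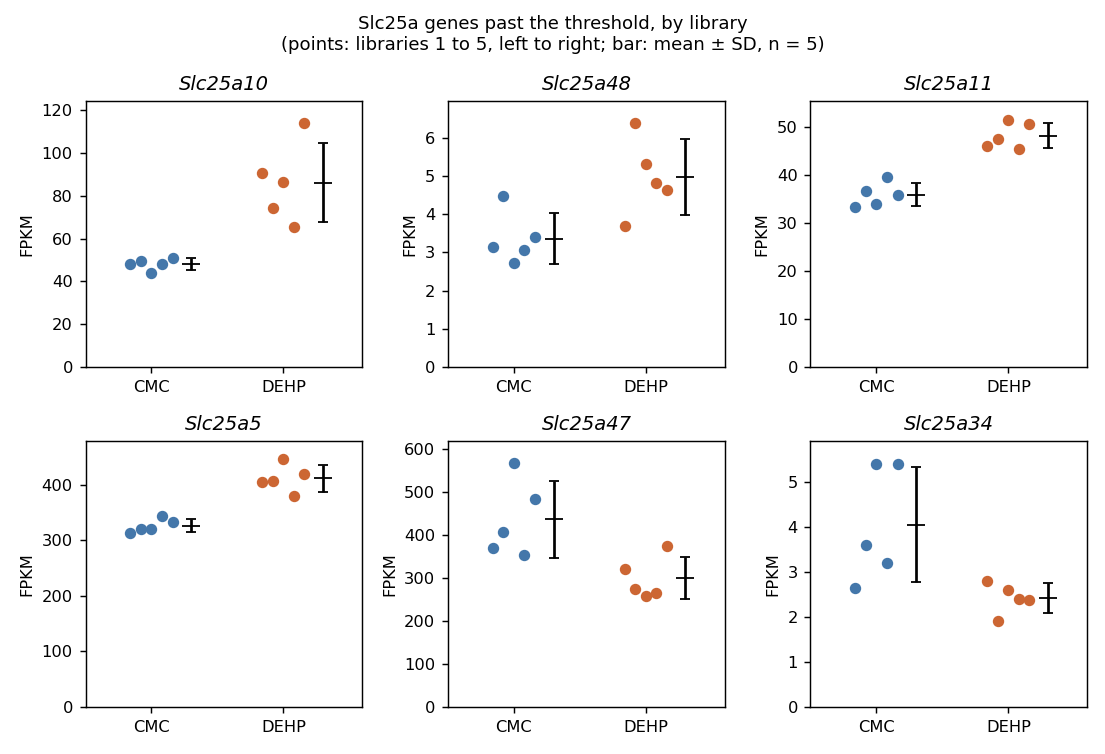
FPKM of 6 called Slc25a members in each of the 5 CMC (blue) and 5 DEHP (orange) libraries, in library order from left to right, with bars for the mean ± SD. The groups do not overlap for Slc25a10, Slc25a11 and Slc25a5, and they overlap for Slc25a48, Slc25a47 and Slc25a34.

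Of the 3 adenine nucleotide and phosphate carriers of ATP synthesis, Slc25a5 was higher. Slc25a5 (gene ID 11740, chrX:36795597-36798808) is the ADP/ATP carrier ANT2, which exports ATP from the matrix in exchange for ADP. CMC libraries 1 to 5 gave levels of 314, 321, 320.1, 344 and 332 FPKM, and DEHP libraries 1 to 5 gave 404, 407, 446, 380.2 and 419 FPKM. The groups did not overlap. The mean rose from 326 ± 11.9 to 411 ± 23.8 FPKM, a log2 fold change of 0.33 (SE 0.07, limma adjusted p = 0.00456), and 0.26 under median-of-ratios scaling. Its value is uncertain because 33.8% of its 50-base words occur in transcripts of 9 other genes, among them the pseudogene Slc25a5-ps, and how such reads were shared out is not stated in the labels.

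Slc25a4, the isoform ANT1 typical of heart and muscle, averaged 3.34 FPKM in CMC and 3.97 FPKM in DEHP libraries and was not called (limma adjusted p = 0.436). Slc25a3, the phosphate carrier, read 206, 256, 227, 226 and 215 FPKM in the CMC libraries, numbers 1 to 5 in order, against 242, 227, 245, 234 and 272 FPKM in the DEHP libraries. Its groups overlapped, with CMC library 2 above all DEHP libraries but the fifth, and its log2 fold change was 0.11 (SE 0.08, adjusted p = 0.417). The ratio of Slc25a4 to Slc25a5 differed by -0.07 on the log2 scale (two-sided exact permutation p = 0.762).

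Among the 3 carriers grouped here as uncoupling protein-like, a grouping by role and not by sequence, Slc25a47 was lower. Slc25a47 (gene ID 104910, chr12:108849833-108856815) is expressed mainly in liver. CMC libraries 1 to 5 gave levels of 369, 408, 569, 355 and 484 FPKM, and DEHP libraries 1 to 5 gave 322, 276, 259, 265 and 375 FPKM. DEHP library 5 lay above the lowest CMC libraries, 1 and 4, and the other DEHP libraries below all of CMC. The mean fell from 437 ± 89.3 to 299 ± 49.0 FPKM, a log2 fold change of -0.54 (SE 0.14, limma adjusted p = 0.0223), and -0.61 under median-of-ratios scaling. The call was lost without CMC library 5 (adjusted p = 0.0534) or DEHP library 2, 3 or 4 (0.0509, 0.0611 and 0.0537), and with the first principal component of the circadian clock genes as a covariate (0.0662).

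In every CMC library Slc25a47 was the most abundant member by FPKM, a scale per transcript length, and in every DEHP library Slc25a5 was. The share of Slc25a47 in the summed FPKM of the 35 members went from 20.7% ± 3.42 to 13.5% ± 1.52, and that of Slc25a5 from 15.5% ± 0.927 to 18.6% ± 1.01 (SD, n = 5 each). The family's sum was 2103 ± 93.8 FPKM in CMC and 2213 ± 142 FPKM in DEHP libraries, and ranges overlapped. Slc25a14 and Slc25a30, uncoupling protein-like carriers of other tissues, averaged 1.70 and 3.37 FPKM in CMC and 1.12 and 2.19 FPKM in DEHP libraries. Their log2 fold changes were -0.43 and -0.64 (limma adjusted p = 0.170 and 0.348). The adjusted p of Slc25a14 was 0.0497 without CMC library 5, the 1 of 21 alternatives that called it, and reached 0.677 under other limma settings. Slc25a29, which lies 162 bases from Slc25a47 in GENCODE M21, carries basic amino acids and had a log2 fold change of 0.22 (adjusted p = 0.613).

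The aspartate and glutamate carriers, 3 in number, held no called member. Slc25a13 is citrin, the liver isoform of the aspartate/glutamate carrier, which feeds the urea cycle and the malate-aspartate shuttle. It read 55.0, 58.0, 58.5, 64.6 and 61.2 FPKM in the CMC libraries, numbers 1 to 5 in order, against 63.9, 75.7, 69.0, 71.1 and 63.3 FPKM in the DEHP libraries. Only CMC library 4 reached into the DEHP range (log2 fold change 0.20, SE 0.08, limma adjusted p = 0.103). Slc25a12, aralar, the isoform of brain and muscle, read 4.94, 3.48, 4.65, 3.82 and 3.30 FPKM in the CMC libraries, numbers 1 to 5 in order, against 3.30, 3.36, 3.85, 4.35 and 2.41 FPKM in the DEHP libraries. These ranges overlapped widely.

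Slc25a22 is a glutamate carrier that moves glutamate together with protons into the matrix. It read 111, 109.7, 114, 103 and 90.7 FPKM in the CMC libraries, numbers 1 to 5 in order, against 90.7, 85.0, 88.1, 86.2 and 101 FPKM in the DEHP libraries. CMC library 5 alone reached into the DEHP range, and the other 4 lay above it. Its log2 fold change was -0.23 (SE 0.08, limma adjusted p = 0.0903). The adjusted p was 0.0371 without CMC library 5, 0.0465 without DEHP library 5 and 0.0107 under quantile normalization. These were the 3 of 22 alternatives that called it, and under other limma settings the adjusted p reached 0.384.

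Of the carriers of cofactors, Slc25a39, a glutathione carrier, was the third most abundant member of the family, and none of those described here was called. It read 276, 323, 282, 274 and 283 FPKM in the CMC libraries, numbers 1 to 5 in order, against 326, 309, 319, 306 and 403 FPKM in the DEHP libraries. CMC library 2 and DEHP library 5 were the highest of their groups by a wide gap, and CMC library 2 lay above 3 of the DEHP libraries (log2 fold change 0.20, SE 0.09, limma adjusted p = 0.150). Its relative Slc25a40 averaged 1.03 FPKM in CMC and 1.13 FPKM in DEHP libraries. Slc25a26, the S-adenosylmethionine carrier, averaged 4.02 and 5.15 FPKM (log2 fold change 0.33, adjusted p = 0.171).

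Slc25a42 carries coenzyme A, and Slc25a16 has been linked to it. Slc25a16 read 14.7, 13.8, 15.9, 14.6 and 14.1 FPKM in the CMC libraries, numbers 1 to 5 in order, against 16.6, 17.9, 17.3, 16.4 and 14.03 FPKM in the DEHP libraries. Slc25a42 read 25.5, 19.6, 41.1, 27.7 and 30.4 FPKM in the CMC libraries, numbers 1 to 5 in order, against 25.3, 26.5, 26.4, 25.7 and 21.5 FPKM in the DEHP libraries. Both overlapped between the groups, and Slc25a42 varied far more among CMC than among DEHP libraries. Slc25a51, the NAD carrier, averaged 21.9 ± 7.77 and 18.1 ± 3.19 FPKM, and Slc25a32, a folate and FAD carrier, 3.91 ± 0.849 and 3.41 ± 1.11 FPKM in CMC and DEHP libraries, with limma adjusted p of 0.494 and 0.601.

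Amino acid carriers and their nearest kin numbered 5, of which Slc25a48 was higher. Slc25a48 (gene ID 328258, chr13:56437960-56472367) read 3.14, 4.47, 2.73, 3.06 and 3.40 FPKM in the CMC libraries, numbers 1 to 5 in order, against 3.68, 6.39, 5.31, 4.81 and 4.64 FPKM in the DEHP libraries. CMC library 2 lay above DEHP library 1, and otherwise the groups were apart. The mean rose from 3.36 ± 0.665 to 4.97 ± 0.991 FPKM, a log2 fold change of 0.50 (SE 0.15, limma adjusted p = 0.0496). The call was kept without CMC library 2 or DEHP library 1 and lost without any other single library, with adjusted p from 0.0194 to 0.114, and it was lost under median-of-ratios scaling (0.0816).

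None of the other 4 amino acid carriers was called. Slc25a15, the ornithine carrier of the urea cycle, averaged 93.1 ± 9.58 FPKM in CMC and 99.0 ± 5.36 FPKM in DEHP libraries (log2 fold change 0.09, 95% interval from -0.08 to 0.27). Slc25a44, which imports branched-chain amino acids, averaged 17.2 ± 1.89 and 17.4 ± 1.58 FPKM (0.01, from -0.20 to 0.22). Slc25a38 imports glycine for heme synthesis and averaged 12.6 ± 1.86 and 13.7 ± 1.31 FPKM. For these 3 the interval lay within ± 0.5 on the log2 scale, as it did for 17 of the 35 members. The share of all tested genes with such an interval was not computed.

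The mitoferrins, Slc25a37 and Slc25a28, bring iron into the matrix. Slc25a37 read 4.69, 6.01, 5.82, 5.48 and 5.22 FPKM in the CMC libraries, numbers 1 to 5 in order, against 6.63, 7.09, 6.58, 6.93 and 7.25 FPKM in the DEHP libraries. The groups did not overlap, and yet it narrowly missed the threshold (log2 fold change 0.32, SE 0.10, limma adjusted p = 0.0535, and 0.127 under median-of-ratios scaling). Its adjusted p was 0.0469 without CMC library 2. It was called in 4 of 22 alternatives, and under other limma settings the adjusted p reached 0.168. Slc25a37 is the isoform of red cell precursors, whose marker Alas2, the erythroid enzyme of heme synthesis, fell from 76.6 to 46.1 FPKM (adjusted p = 0.000208), the 1 erythroid marker called of 5 tested. Summed over all 8 listed, erythroid markers lay between 1227 and 2434 FPKM in CMC and between 1061 and 1723 FPKM in DEHP libraries, with Slc4a1 under 0.5 FPKM in every library. Their part in the Slc25a37 level was not tested. Slc25a28 averaged 13.9 ± 3.16 and 15.96 ± 2.90 FPKM (adjusted p = 0.471).

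The ATP-Mg/phosphate carriers set the adenine nucleotide pool of the matrix in response to calcium. Slc25a23 read 78.8, 70.0, 77.0, 73.1 and 79.7 FPKM in the CMC libraries, numbers 1 to 5 in order, against 89.0, 92.6, 88.0, 81.8 and 83.1 FPKM in the DEHP libraries. All DEHP values lay above all CMC values, with a log2 fold change of 0.20 (SE 0.07) and a limma adjusted p of 0.0846. Slc25a25 varied more than most members, from 20.7 to 57.7 FPKM in CMC and from 21.5 to 51.8 FPKM in DEHP libraries, and the 95% interval of its log2 fold change ran from -0.55 to 0.95. Slc25a33, a pyrimidine nucleotide carrier, averaged 15.9 ± 4.93 and 16.5 ± 3.10 FPKM. In all, 6 members had higher values in every DEHP than in every CMC library and 0 had lower ones, or 17.1% of members, where 10.7% of all tested genes were without overlap (8.56% higher and 2.14% lower).

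Of the 4 members whose role is little settled, Slc25a34 was lower. Slc25a34 (gene ID 384071, chr4:141618819-141623891) read 2.65, 3.60, 5.4, 3.21 and 5.42 FPKM in the CMC libraries, numbers 1 to 5 in order, against 2.81, 1.92, 2.61, 2.41 and 2.38 FPKM in the DEHP libraries. DEHP library 1 lay above CMC library 1, and all other DEHP libraries lay below all of CMC. The mean fell from 4.06 ± 1.28 to 2.43 ± 0.332 FPKM, a log2 fold change of -0.60 (SE 0.18, limma adjusted p = 0.0460), and -0.66 under median-of-ratios scaling (adjusted p = 0.0319). The call was kept without CMC library 1 or 4 and lost without any other single library, with adjusted p from 0.0198 to 0.112.

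Its close relative Slc25a35 read 0.61, 0.16, 0.24, 0.38 and 0.08 FPKM in the CMC libraries, numbers 1 to 5 in order, against 0.64, 0.55, 0.56, 1.29 and 0.47 FPKM in the DEHP libraries. These levels are close to the filter, only CMC library 1 reached into the DEHP range, and 25.0% of its 50-base words occur in other genes, first among them the overlapping Rangrf. Its log2 fold change was 0.60 (SE 0.22, limma adjusted p = 0.107). Slc25a35 was the member just inside the filter, with 5 libraries at 0.5 FPKM or more. These were CMC library 1 and DEHP libraries 1 to 4, so it passed mainly through the group where it read higher. Its fold change is therefore not independent of the filter. Slc25a27, a brain uncoupling protein with 4 such libraries and means of 0.698 and 0.334 FPKM, was just outside. Slc25a45 averaged 12.5 and 13.03 FPKM, and Slc25a46, an outer membrane protein of mitochondrial dynamics, 7.75 and 8.05 FPKM, neither called.

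The other 7 rows below the filter were Slc25a24, Slc25a36, Slc25a2, Slc25a53, Slc25a43, Slc25a31 and Slc25a18. Slc25a24 averaged 0.360 FPKM in CMC and 0.322 FPKM in DEHP libraries and Slc25a36 averaged 0.340 and 0.254 FPKM. The rest never reached 0.5 FPKM. Among them Slc25a31, a testis ADP/ATP carrier, was listed above 0 in DEHP library 3 alone.

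Carriers with related substrates were then compared within each library, as the log2 ratio of their FPKM + 0.5, in 9 pairs. For the dicarboxylate carrier Slc25a10 against the oxoglutarate carrier Slc25a11, the FPKM ratio averaged 1.34 in CMC and 1.78 in DEHP libraries. The log2 ratio lay between 0.279 and 0.516 in CMC and between 0.519 and 1.16 in DEHP libraries. The groups did not overlap but nearly touched. The difference was 0.39, with a two-sided exact permutation p of 0.00794, the smallest that 5 against 5 libraries can give, and 0.0714 after adjustment over the 9 pairs. No pair passed that adjustment, which a lone pair at the smallest possible p cannot pass.

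For Slc25a34 and Slc25a35 the log2 ratio averaged 2.51 ± 0.735 in CMC and 1.31 ± 0.374 in DEHP libraries (difference -1.20, exact permutation p = 0.0317, adjusted p = 0.107). Slc25a35 lay close to the filter and passed it mainly through DEHP libraries, so this difference is not independent of the filter. Slc25a12 against Slc25a13, aralar against citrin, had a difference of -0.41 (exact permutation p = 0.0476, adjusted p = 0.107). Slc25a16 against Slc25a42 had a difference of 0.32 with the same p values under that exact test. In the last pair the DEHP libraries lay between -0.64 and -0.55 and the CMC libraries between -1.34 and -0.50, so the CMC range took in all of DEHP. The pairs of Slc25a28 with Slc25a37, Slc25a39 with Slc25a40, Slc25a23 with Slc25a25 and Slc25a14 with Slc25a30 had exact permutation p values from 0.563 to 1.0.

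**Figure D3:**
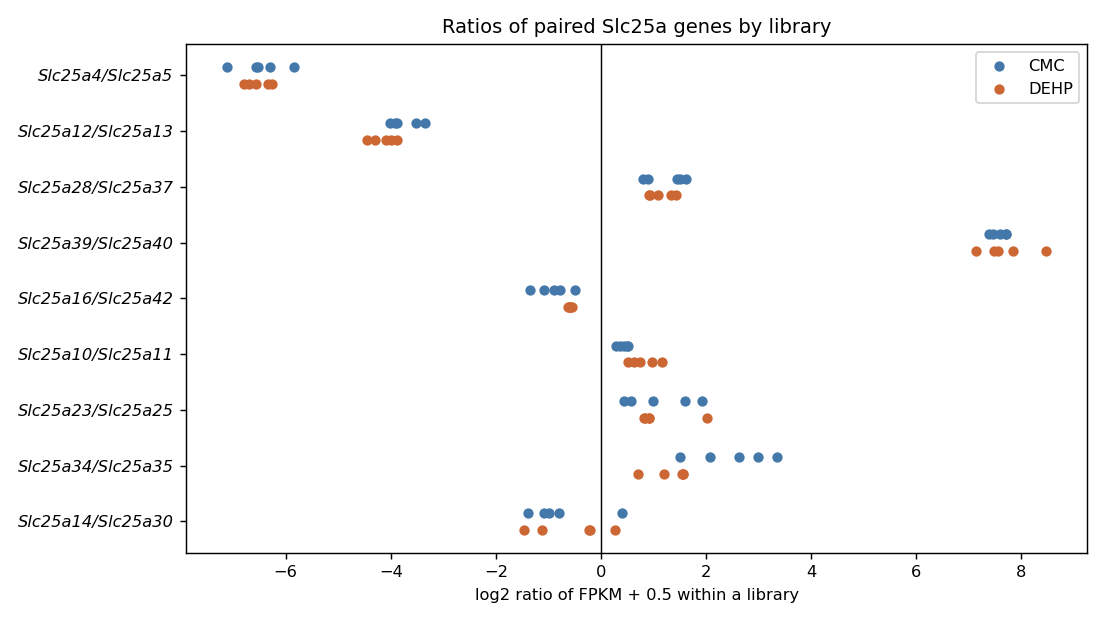
Log2 ratio of FPKM + 0.5 within each library for 9 pairs of related Slc25a members, with CMC in blue and DEHP in orange, 5 points each. The groups do not overlap for Slc25a10 against Slc25a11, where they nearly touch, and they overlap for the other 8 pairs.

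Genes that work beside the carriers were read from lists by role. The counts describe the lists, to be read against the 9.12% of all tested genes that were higher and the 2.4% that were lower, and the fold changes are on FPKM as deposited. In the list of citrate export and use 6 of 8 tested genes were higher, among them Me1, malic enzyme, from 48.0 to 142 FPKM (log2 fold change 1.46, limma adjusted p = 0.00242), and Fasn, fatty acid synthase (log2 fold change 1.05). Of 6 enzymes of the malate-aspartate and glycerol phosphate shuttles Mdh2 and Got2, both of the matrix, were higher (0.50 and 0.34). Of the 6 urea cycle genes none was called by limma. The 2 at an unadjusted p under 0.05, Nags and Otc, went opposite ways (0.21 and -0.33). Otc was called lower under quantile normalization (limma adjusted p = 0.0498) and not under median-of-ratios scaling (0.0644). For the ATP synthase 5 of 16 were higher, led by its inhibitor Atpif1 (0.91, from 13.5 to 25.8 FPKM). The pyruvate carrier subunit Mpc2 was higher (0.25, adjusted p = 0.0451) and Mpc1, with nearly the same fold change, was not called (0.25, adjusted p = 0.0515).

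For the route by which carriers enter the inner membrane, 3 of 16 tested genes were higher, Tomm40, Tomm5 and Tomm7 of the outer membrane pore (0.47, 0.59 and 0.31), and none of the TIM subunits was called. Of 5 porins and carrier-like outer membrane proteins Vdac1 was higher (0.24, limma adjusted p = 0.0473). Coenzyme A synthesis had 2 of 7 higher, Coasy and Ppcs (0.55 and 0.43). Iron-sulfur and heme genes had 2 of 10, Cpox and Nfs1 (0.45 and 0.31), and folate genes 1 of 6, Shmt2 (0.41). Glutathione genes had 4 of 8 higher, among them Gpx1, Gpx4 and Glrx5 (0.37, 0.49 and 0.33), and 1 lower, the synthase Gss (-0.58). Of 6 genes of mitochondrial NAD handling none was called by limma, with 1 at an unadjusted p under 0.05. Under median-of-ratios scaling the higher counts were 5 of 8 for citrate export and use, 1 of 6 for the shuttles, 2 of 16 for the ATP synthase, 2 of 16 for import, 1 of 10 for iron-sulfur and heme and 1 of 8 for glutathione, where Gss stayed lower. Mpc2 and Vdac1 were no longer called under it (limma adjusted p = 0.198 and 0.160).

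The circadian clock genes varied between libraries, in part along with the groups. Dbp, a clock-controlled transcription factor, read 1.15, 1.12, 1.42, 8.73 and 26.15 FPKM in the CMC libraries, numbers 1 to 5 in order, against 21.2, 34.35, 5.28, 20.28 and 50.24 FPKM in the DEHP libraries. CMC libraries 1 to 3 lay below every DEHP library, and CMC libraries 4 and 5 inside the DEHP range. Its log2 fold change was 2.37 (SE 0.96, limma adjusted p = 0.168), the largest of the clock genes tested. Directions differed among them: Tef and Cry2 had log2 fold changes of 0.63 and 0.45, and Arntl and Cry1 of -0.49 and -0.53. Of 16 tested clock genes none was called by limma, with 3 at an unadjusted p under 0.05, and the exact permutation test called no gene of the table. The first principal component of these genes was signed so that DEHP had the higher mean. It gave scores of -3.93, -2.60, -4.38, 0.85 and 2.72 in the CMC and of 1.38, 3.25, -1.47, 1.02 and 3.16 in the DEHP libraries. Here too CMC libraries 1 to 3 lay below all of DEHP, and CMC libraries 4 and 5 inside the DEHP range. With that component as a covariate 3 members were higher, both lower members lost their calls (limma adjusted p = 0.0662 for Slc25a47 and 0.114 for Slc25a34), and calls over all genes were 648 higher and 171 lower. The cause of the smaller counts was not tested.

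The carriers left out of the family count stood as follows. Slc25a20, the carnitine/acylcarnitine carrier, rose from 60.9 ± 3.11 to 95.7 ± 19.2 FPKM (log2 fold change 0.63, limma adjusted p = 0.00219), and Ucp2, an uncoupling protein, from 16.9 to 100.5 FPKM (2.51). Slc25a17, the peroxisomal carrier, averaged 30.6 ± 4.46 FPKM in CMC and 35.2 ± 1.04 FPKM in DEHP libraries and was not called (0.21, adjusted p = 0.190). Ucp3 was listed at 0 in every library.

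How firmly each call holds differs between the called members. Slc25a10, Slc25a11 and Slc25a5 kept their calls in 21 of 22 alternatives, all but the exact permutation test per gene, whose smallest adjusted p over all genes is 0.0742. Slc25a47 kept its call in 16, Slc25a34 in 8 and Slc25a48 in 7. The direction was the same throughout for these 6.

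**Figure D4:**
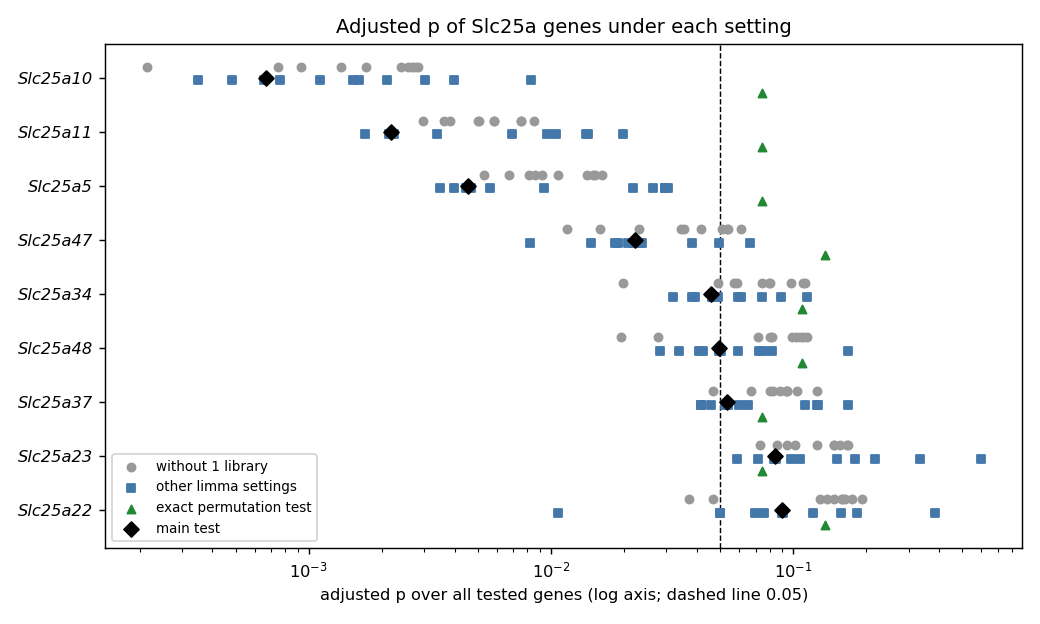
Limma adjusted p over all tested genes (log axis, threshold 0.05 as a dashed line) of Slc25a members with the smallest p, in the test as reported (diamonds), with 1 library left out (grey), under other limma settings (blue) and by the exact permutation test per gene (green). The points of Slc25a10, Slc25a11 and Slc25a5 lie left of the line except the green ones, at 0.0742.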

How the data were processed

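Liver RNA of 10 libraries, 5 CMC and 5 DEHP, was measured with an Illumina TruSeq kit, per the labels' protocols. The authors deposited 1 FPKM value per gene and library, per the file headers. The submitters' processing notes name Cuffdiff, mm10 and GRCm38 without versions, and say nothing of their order. The aligner and the strand setting are not given in the sources used here. Columns were matched to samples by the labels' descriptions.

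Rows reaching 0.5 FPKM in 5 or more of the 10 libraries were tested as log2(FPKM + 0.5), DEHP minus CMC, with limma 3.58.1 (R 4.3.3, intensity trend, robust variance) and Benjamini-Hochberg adjustment over 11242 genes, with no covariate. Fold changes are on this log2(FPKM + 0.5) scale and so understate changes of low genes. FPKM holds no counts, so depth is unknown and no counting interval is given; precision rests on 5 libraries per group. Ratios of pairs were tested by a two-sided exact permutation test over 252 regroupings. Alternatives were pseudocounts of 0.1 and 1, no filter or 2 FPKM, median-of-ratios and quantile scaling, limma without trend and robust variance, array weights, a replicate block, a circadian covariate, an exact permutation test per gene, and leaving out libraries.

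Of 16874 gene IDs 16833 matched the RefSeq GRCm38.p6 gene table, all 45 Slc25a rows among them. Gene positions and upstream windows are from RefSeq GRCm38.p6, and overlaps, neighbours and shared 50-base words from GENCODE M21. Upstream windows are the 250 bases before a start, without the 50 bases after it; for 27 of 36 member windows the next 30 bases were found in a transcript of the gene. The limma and permutation scripts were tested on simulated data. Values in every library are given for called members, the 6 most abundant and both members of pairs with an unadjusted p below 0.05, and for Slc25a37 and Slc25a23, which were added for their lack of overlap, and Gss for its direction, after their values were seen. Some genes that these rules take are counted but not reported here. Other genes of a list are named for the smallest p, up to 3 a list. The members, gene lists, pairs and tests were chosen with earlier results of these data known. Software was Python 3.11.15, pandas 2.3.3, SciPy 1.17.1, NumPy 2.4.6 and, for figures, Matplotlib 3.10.9.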

Additional observations from a re-analysis of the deposited data

Results flagged for a closer look

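In 70 groups of 5 values (35 members in CMC and in DEHP), 6 had a sample whose gap to its neighbour exceeded 0.71 of the group's range, Dixon's 95% limit, where chance alone flags about 1 in 20, or 3.5 of 70. Of the 6, 5 were in CMC library 2 or DEHP library 5. Slc25a39 read 322.55 FPKM in CMC library 2, above 273.77 to 283.43 FPKM in the other CMC libraries, and 403.3 FPKM in DEHP library 5, above 305.54 to 325.72 FPKM. Slc25a51, the NAD carrier, read 35.57 FPKM in CMC library 2 against 16.6 to 20.31 FPKM. Slc25a30, an uncoupling protein-like carrier, read 1.38 FPKM in CMC library 2 against 3.29 to 4.06 FPKM. Slc25a42, the coenzyme A carrier, read 21.51 FPKM in DEHP library 5 against 25.33 to 26.49 FPKM. Slc25a35 read 1.29 FPKM in DEHP library 4 against 0.47 to 0.64 FPKM. None of these genes was called.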

How the results depend on the processing

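No called member changed direction under any of the 22 alternatives. The 5 higher and 2 lower members became 3 and 1 with no filter on low values and 3 and 2 with median-of-ratios scaling. Quantile normalization gave 3 and 3, limma without trend and robust variance 5 and 1, and the circadian covariate 3 and 0. The exact permutation test per gene gave 0 and 0. The counts were 4 and 1 without CMC library 2 and DEHP library 5, and leaving out 1 library gave 3 to 5 higher and 0 to 2 lower. Calls over all genes, 1025 higher and 270 lower, moved too: to 886 and 227, 639 and 445, 611 and 546, 828 and 220, 648 and 171, 0 and 0, 948 and 244 under these settings in the same order, and to 747 to 1011 and 202 to 263 with 1 library left out. With no filter 16244 genes were tested. The exact permutation test cannot give a p below 0.00794 with 5 against 5 libraries, and genes at that p did not pass the adjustment. For the other settings the cause was not tested. Higher calls made up 79.2% of all calls over all genes, 58.9% with median-of-ratios scaling and 52.8% with quantile normalization, and members with a positive fold change numbered 26, 22 and 19. The replicate block left 4 higher and 1 lower member (816 and 229 of all genes). The replicate numbers do not pair the libraries: same-numbered libraries had correlations of their deviations between -0.0722 and 0.0489, and none correlated best with its own number. No pair passed the threshold with pseudocounts of 0.1 or 1 or with 1 library left out. A lone pair at the smallest p of the exact test cannot pass it over 9 pairs, so this outcome says little about the pairs. There were 3 small differences that changed sign: Slc25a4/Slc25a5 became 0.09 without CMC library 2, Slc25a39/Slc25a40 -0.07 without DEHP library 5, and Slc25a23/Slc25a25 ran from -0.23 to 0.20. Of the members 9, all uncalled, changed sign in at least 1 alternative. Depth is unknown, so the precision of members near the filter cannot be given.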
